A study of Mus musculus with 19 samples.

Results

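Complex I of the mitochondrial respiratory chain was described through 35 of its nuclear-encoded subunits, in mRNA bound to the ribosomes of spiny projection neurons of the mouse striatum, in young and in old animals. The genes were taken as a list of symbols, with assembly factors and pseudogenes left out. Each of the 35 symbols matched 1 of the 39017 genes in the deposited tables, and all 35 were among the 13926 genes that passed the filter on low counts and were tested. Ribosome-bound mRNA was isolated by translating ribosome affinity purification (TRAP), in which an EGFP-tagged ribosomal protein L10a is expressed in a chosen cell type and pulled down with its mRNA.

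All 16 libraries came from the striatum of female mice on a background written as C56BL/6J. Direct-pathway (D1) neurons were taken from Drd1::EGFP-L10a mice and indirect-pathway (D2) neurons from Drd2::EGFP-L10a mice. Young animals were 42 days old and old animals 2 years old, which gave 4 groups (young D1, old D1, young D2, old D2) of 4 biological replicates each. The captured cells are those in which the Drd1 or Drd2 transgene is active, and the labels do not say whether a library came from 1 animal or from several. In such pulldowns, fewer cells of a type and less RNA per cell cannot be told apart.

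Complex I takes electrons from NADH, passes them to ubiquinone and pumps protons across the inner mitochondrial membrane, which makes it the main entry point of the chain that supplies ATP to neurons. The N module binds NADH and holds the first redox centres, the Q module carries the electrons to ubiquinone, and the membrane arm holds the proton pumps. The catalytic core is shared with bacteria and is divided between the nuclear and the mitochondrial genome, and the accessory subunits surround and stabilise it. After the usual modular scheme, 10 of the 35 genes were placed in the N module, 5 in the Q module and 19 in the membrane arm, with the acyl carrier protein Ndufab1, which sits in both arms, on its own. Of the 35, 6 encode core subunits (Ndufs1, Ndufs3, Ndufs7, Ndufs8, Ndufv1 and Ndufv2).

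The libraries held between 27484038 and 70903004 fragments assigned to genes, of which 73440 to 268516 fell on the 35 subunit genes. The 4 old D1 libraries stood apart from the other 12. A count was present for 10369 to 13705 genes in old D1 against 12783 to 15000 elsewhere. The mean fragment length was 151 to 164 bases in old D1 against 170 to 195 elsewhere. The share of fragments on Gm42418, a gene that overlaps a ribosomal RNA repeat, was 4.45% to 5.41% against 9.76% to 18.2%. Summed TPM (the deposited transcript level, corrected for gene length and depth) of 6 D1 neuron markers was 2459 to 3229 in young D1 and 4597 to 7381 in old D1, against 133 to 154 in young D2 and 411 to 656 in old D2. The 5 D2 neuron markers summed to 7615 to 8849 in young D2 and 5455 to 11479 in old D2, and to at most 551 in D1 libraries, so the labelled neuron type was borne out in every library. The 7 astrocyte markers summed to 34.9 to 89 TPM in young D1, 34 to 61.3 in old D1, 11.4 to 15.4 in young D2 and 35.5 to 55.6 in old D2. The 6 oligodendrocyte markers summed to between 75.6 and 353 TPM across the libraries. The 6 microglial markers summed to at most 12.2 TPM in any library, and 2 of them, Tmem119 and C1qa, were below 1 TPM in all 16. The 4 GABAergic interneuron markers varied most among the old D1 libraries, with sums of 30.5 to 546 TPM there, 62.1 to 140 in young D1, 5.15 to 53.1 in young D2 and 11.7 to 91.9 in old D2. The part of these library and marker differences in the results was not tested. A fit corrected for base composition and length is given, but it also removes any age change that follows them, and the 2 cannot be told apart.

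Taken over the 35 genes, subunit mRNA made up 1.61% of all TPM in young D1 (summed TPM 16131 ± 1580, SD, n = 4) and 1.42% in young D2 (14230 ± 1871). The share was 1.4% in old D1 (13971 ± 1793) and 1.22% in old D2 (12244 ± 1385). Old and young libraries overlapped in both neuron types. In D1 neurons the summed TPM of the arms did not share one direction. Membrane arm mRNA summed to 10089 ± 1092 TPM in young D1 and 7257 ± 1251 in old D1, with no overlap (9197 to 11610 against 5805 to 8723). Q module mRNA summed to 1993 ± 317 and 2438 ± 309, with overlap, and N module mRNA to 3296 ± 180 and 3077 ± 241. Within the Q module, Ndufa5 was at 597 ± 209 and 1081 ± 201 TPM, and its retained-intron isoform at 217 ± 213 and 901 ± 182. Ndufs3 was at 723 ± 63.6 and 863 ± 89.7 TPM, but its log2 change on counts was -0.07, as its RSEM length went from 872 to 753 bases. On counts, 3 of the 5 Q module genes had negative changes, with a median of -0.07. Ndufab1 alone was at 753 ± 150 in young D1 and 1200 ± 383 in old D1. In D2 neurons every mean was lower in old mice: 8477 ± 1261 and 7280 ± 768 TPM for the membrane arm, 1991 ± 371 and 1562 ± 386 for the Q module, 3014 ± 314 and 2776 ± 492 for the N module and 749 ± 124 and 626 ± 55.2 for Ndufab1, with overlap in each.

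Levels of single subunits spanned a wide range. Ndufa1, a small membrane arm subunit needed for assembly and encoded on chromosome X, had the highest mean over the 16 libraries (1550 TPM) and ranked first in all 4 groups. In young D1 its 4 libraries read 1440, 1898, 2392 and 2009 TPM, and in old D1 2129, 873, 880 and 2162 TPM. In young D2 it read 1227, 1975, 1693 and 1312 TPM, and in old D2 1063, 1403, 1138 and 1204 TPM. The 4 groups overlapped, and the old D1 libraries fell into a high and a low pair. The next in order were Ndufb9 (1161 TPM), Ndufab1 (832), Ndufa3 (797) and Ndufb5 (796), and the means of Ndufab1, Ndufa3 and Ndufb5 differed by less than the spread within their groups. The lowest were Ndufs1 (51.6 TPM), the large iron-sulphur subunit of the N module, and Ndufa11 (51), a membrane arm subunit at the interface with complex III. Ndufa3 stood at rank 3 in young D1, young D2 and old D2 and at rank 13 in old D1. Ndufa8 moved the other way, from rank 32 in young D1 and 33 in both D2 groups to rank 14 in old D1.

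The first comparison asked how subunit mRNA differed between old and young D1 neurons. Of the 35 genes, 1 rose (Ndufa8) and 7 fell (Ndufa3, Ndufb7, Ndufa11, Ndufa7, Ndufa10, Ndufs8 and Ndufb8) at an adjusted p under 0.05 in edgeR's quasi-likelihood test, with Benjamini-Hochberg adjustment over all 13926 genes. Over all genes, 10.8% passed, 5.39% higher and 5.44% lower. The log2 fold change was negative for 25 of the 35 (71.4%, against 52.2% of all genes), with a median of -0.55 against -0.06 for all genes. The membrane arm held 1 of the genes that rose and 5 of those that fell among its 19, with a median of -0.72. The N module had 1 that fell among 10 (median -0.25), and the Q module 1 that fell among 5 (median -0.07). Among the 6 core subunits 1 fell, Ndufs8, and 5 had negative values. The count of 8 was 1 when the D1 libraries were fitted alone, 3 by voom, 2 after correction for GC content and length, and 5 without young D1 replicate 1 or 4. The count over all genes also fell, from 1508 to 305, 547 and 916 in the first 3 of these fits. It was 919 without young D1 replicate 1 and 909 without young D1 replicate 4.

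**Figure D1:**
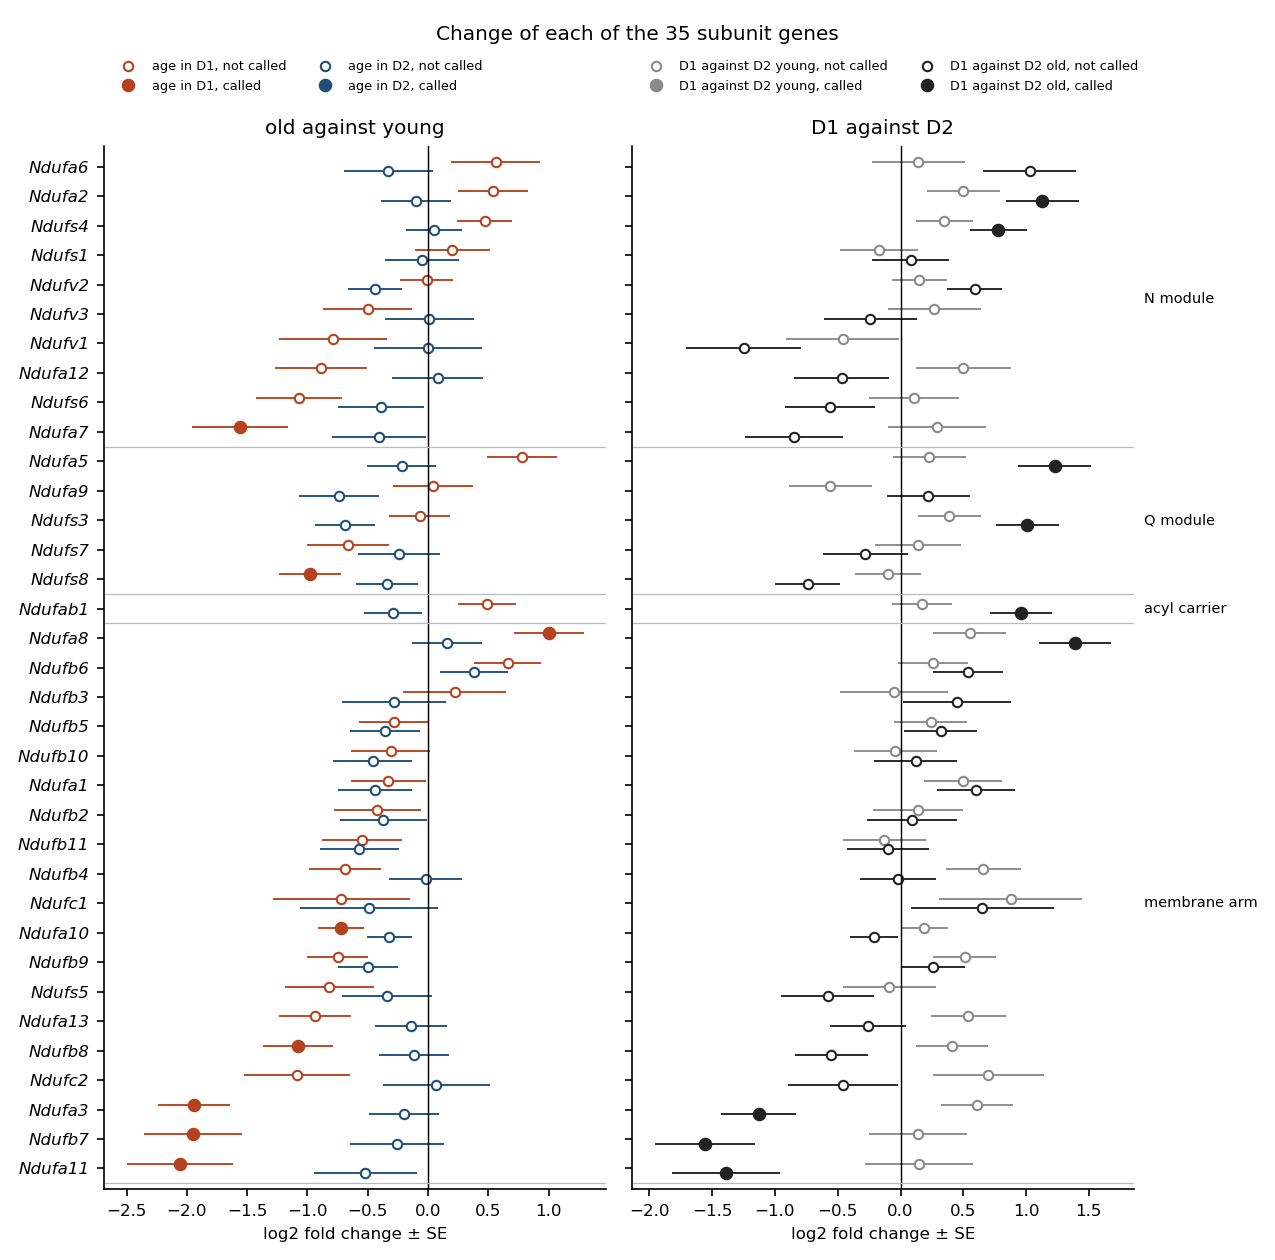
Log2 fold change with its standard error (horizontal axis) for each of the 35 subunit genes, by arm. The left panel shows old against young in D1 (orange) and D2 (blue) neurons, the right panel D1 against D2 in young (grey) and old (black) mice; filled circles passed an adjusted p under 0.05. Filled circles appear for 8 genes for age in D1 and 9 for D1 against D2 at 2 years, and for none in the other 2 comparisons.

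Ndufa3, a small accessory subunit of the membrane arm, was at 1290, 942, 1063 and 1409 TPM in the 4 young D1 libraries and at 436, 251, 295 and 265 TPM in the 4 old D1 libraries. The groups did not overlap, and every old D1 library was also below every D2 library (605 to 1117 TPM in young D2, 607 to 1015 TPM in old D2). For this gene and those that follow, the share of all genes whose TPM separates in this way was not read. On the count scale Ndufa3 fell by 1.94 log2 units (SE 0.30, adjusted p = 0.000591, edgeR). The call was made in each of the 6 other analyses and without any single library, with adjusted p between 1.61e-08 and 0.019. Ndufa3 lies at chr7:3617373-3620327 (plus strand, mm10), and its exons overlap those of Tfpt on the opposite strand. Tfpt was at 15.3 ± 15.5 TPM in young D1 and 6.46 ± 2.72 TPM in old D1, far below Ndufa3.

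Ndufb7, a membrane arm subunit on the side facing the intermembrane space, was at 207, 234, 246 and 158 TPM in young D1 and at 48.8, 23.9, 74.7 and 73 TPM in old D1. There was no overlap, and Ndufb7 fell by 1.95 log2 units (SE 0.41, adjusted p = 0.00482, edgeR). Ndufa11 read 62.6, 50.8, 60.5 and 97.5 TPM in young D1 and 10.1, 18.4, 36.8 and 7.25 TPM in old D1. These groups did not overlap either, and Ndufa11 fell by 2.06 log2 units (SE 0.44, adjusted p = 0.00593, edgeR). Its exons overlap those of Vmac on the opposite strand, which was at 1.32 ± 0.719 TPM in young D1 and 0.842 ± 1.28 TPM in old D1. Both calls were made without any single library.

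Ndufa7, an accessory subunit of the N module, was at 460, 279, 320 and 416 TPM in young D1 and at 146, 76.5, 207 and 134 TPM in old D1. The old D1 libraries were all lower, and the gene fell by 1.56 log2 units (SE 0.40, adjusted p = 0.0177, edgeR). Without young D1 replicate 1 this call was not made. Ndufs8, a core Q module subunit that holds a pair of iron-sulphur clusters on the way to ubiquinone, was at 213, 172, 185 and 185 TPM in young D1 and at 138, 92.5, 79.7 and 91.7 TPM in old D1. It fell by 0.98 log2 units (SE 0.26, adjusted p = 0.0233, edgeR) with no overlap, but not without young D1 replicate 1 or young D1 replicate 4.

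Ndufa10, a membrane arm subunit related to nucleoside kinases, was at 304, 245, 296 and 207 TPM in young D1 and 264, 142, 226 and 101 TPM in old D1. It fell by 0.72 log2 units (SE 0.19, adjusted p = 0.0231, edgeR), although its TPM values overlapped. Ndufb8, a membrane arm subunit widely used as a protein marker of assembled complex I, was at 866, 562, 1007 and 881 TPM in young D1 and 663, 614, 442 and 546 TPM in old D1, with overlap. Ndufb8 fell by 1.08 log2 units on counts (SE 0.29, adjusted p = 0.0235, edgeR), but not without young D1 replicate 1 or young D1 replicate 4. On log2(TPM + 1) its difference was -0.53 (adjusted p = 0.14, limma). The gene length behind the TPM of Ndufb8, which RSEM weights by isoform, went from 513 bases in young D1 to 404 in old D1, so that the same count gives a higher TPM there. Its exons overlap those of Gm20538 on the same strand.

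Ndufa8, a membrane arm subunit of the intermembrane-space face with paired cysteine motifs, was the gene that rose. It read 110, 106, 183 and 121 TPM in young D1 and 256, 313, 306 and 214 TPM in old D1. All 4 old D1 libraries were above all 12 others, since young D2 reached 111 TPM and old D2 127 TPM. The log2 fold change was 1.0 (SE 0.29, adjusted p = 0.0313, edgeR). This call ended when any one of 6 libraries was left out (young D1 replicates 1, 2 and 4, young D2 replicate 4, old D1 replicate 2 and old D2 replicate 2), while its value stayed between 0.88 and 1.17.

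**Figure D2:**
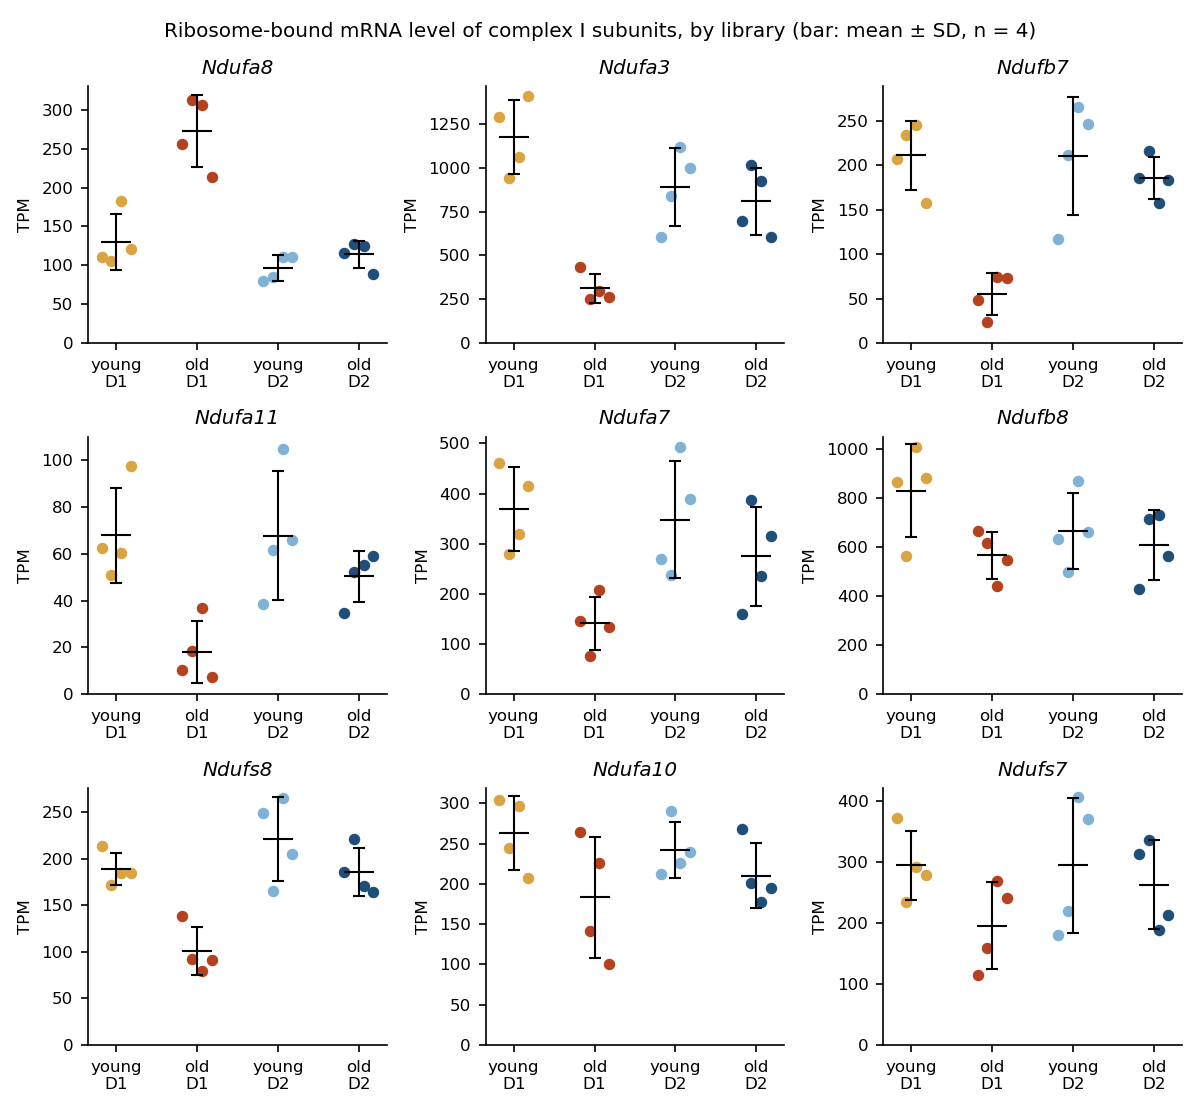
TPM of 9 subunit genes (vertical axis, from 0) in each of the 16 libraries, with the mean and SD of each group of 4. Ndufa8 in old D1 lies above the 12 other libraries, Ndufa3, Ndufb7 and Ndufs8 in old D1 lie below them, Ndufa11 and Ndufa7 lie below both young groups but overlap old D2, and Ndufa10 and Ndufb8 overlap young D1. The share of all genes that separate in this way was not read.

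A further 4 genes had an adjusted p between 0.05 and 0.1. Ndufa13, also known as GRIM-19, was at 366 ± 16.3 TPM in young D1 and 200 ± 98.3 in old D1 (log2 fold change -0.94, adjusted p = 0.0503, edgeR). Ndufb9, of the membrane arm, was at 1568 ± 295 and 942 ± 267 TPM, with a log2 fold change of -0.75 (adjusted p = 0.0617, edgeR). Ndufs6, an N module subunit that binds zinc, was at 544 ± 70.2 and 271 ± 159 TPM, with a log2 fold change of -1.07 (adjusted p = 0.064, edgeR). Ndufa5, of the Q module, was at 597 ± 209 and 1081 ± 201 TPM, with a log2 fold change of 0.78 (adjusted p = 0.0917, edgeR). At an unadjusted p under 0.05 there were 17 of the 35 genes, where 26.9% of all genes were.

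The same question in D2 neurons gave 0 of 35 genes at an adjusted p under 0.05 by edgeR and 0 by DESeq2, where 0.079% of all genes passed in edgeR. In this edgeR fit of all 16 libraries, 2 of 35 had an unadjusted p under 0.05, near the 5.75% of all genes. Ndufs3, a core Q module subunit, read 636, 506, 637 and 634 TPM in young D2 and 673, 469, 161 and 389 TPM in old D2 (log2 fold change -0.69, SE 0.25, adjusted p = 0.649, edgeR). Ndufa9, which binds a nucleotide cofactor near the ubiquinone site, read 189, 400, 296 and 293 TPM in young D2 and 218, 175, 223 and 129 TPM in old D2 (-0.74, SE 0.33, adjusted p = 0.809, edgeR). Both pairs of groups overlapped. The values were negative for 28 of the 35 (80%, against 48.9% of all genes), with a median of -0.29 against 0.01. Fitted without the old D1 libraries, a choice made after the data were seen, the median was -0.30 and again 0 genes passed. In that fit 6 of the 35 had an unadjusted p under 0.05 (edgeR). The number was 7 when the D2 libraries were fitted alone (edgeR) and 7 by voom. The share of all genes under 0.05 in these fits was not read. For the genes that fell in D1, the changes in D2 were -0.20 for Ndufa3, -0.26 for Ndufb7, -0.52 for Ndufa11, -0.41 for Ndufa7, -0.34 for Ndufs8, -0.32 for Ndufa10 and -0.12 for Ndufb8. For Ndufa8 the D2 value was 0.16.

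Whether the age changes of the 2 neuron types differed was tested directly. Only Ndufa3 passed, with a difference of -1.74 log2 units between its change in D1 and its change in D2 (SE 0.42, adjusted p = 0.0391, edgeR). By DESeq2 there were 2, and by voom, without the count filter and after correction for GC content and length there were 0. In that order these fits called 1019, 182, 176 and 74 of all genes, against 246 in the main fit. Over all genes 1.77% passed in edgeR, and the median difference was -0.23 for the subunits and -0.11 for all genes. The call for Ndufa3 ended when any one of 9 libraries was left out (young D1 replicates 1, 2 and 4, young D2 replicates 1, 2 and 4, old D1 replicate 2, and old D2 replicates 2 and 3), with values between -1.91 and -1.58. The other 7 genes called for age in D1 were thus not shown to differ from D2 in their response.

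Between D1 and D2 neurons of young mice, 0 of 35 genes passed by edgeR and 0 by DESeq2 (0.409% of all genes in edgeR), and 1 had an unadjusted p under 0.05 (6.01% of all genes did). That gene was Ndufb4, of the membrane arm, at 223 ± 57.1 TPM in young D1 and 161 ± 40.9 TPM in young D2 (log2 fold change 0.66, SE 0.30, adjusted p = 0.795, edgeR). Its value is uncertain, because Ndufb4c, a near-identical copy, was listed at 474 ± 148 TPM in young D1 and 326 ± 48 in young D2. The values were positive for 27 of the 35, with a median of 0.23 against 0.02 for all genes (0.24 and again 0 genes when fitted without the old D1 libraries). Without the old D1 libraries 6 of the 35 had an unadjusted p under 0.05 (edgeR). The number was 7 with the young libraries alone (edgeR) and 4 by voom. What share of all genes was under 0.05 in these fits was not read. At an adjusted p under 0.05 they called 119, 98 and 203 of all genes, against 57 in the main fit.

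At 2 years, D1 and D2 neurons differed in 9 of the 35 genes, 6 higher and 3 lower in D1, where 9.6% of all genes passed (5.02% higher and 4.58% lower). This comparison uses the same old D1 libraries as the first. The Q module held 2 of the higher genes, the N module 2, the membrane arm 1 higher and 3 lower, and the remaining one was Ndufab1. The median was 0.08 for the subunits and -0.07 for all genes. The count of 9 was 2 when the old libraries were fitted alone and 3 by voom, and it was 3 to 5 without old D2 replicate 2, 3 or 4 or without old D1 replicate 4. The count over all genes also fell, from 1337 to 354 and 655 in the first 2 fits. It was 692 to 1184 without those single libraries.

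Of the higher genes, Ndufa8 was at 116, 127, 125 and 88.8 TPM in old D2, all below the old D1 values given before (log2 fold change 1.39, SE 0.29, adjusted p = 0.00545, edgeR). This call was made in all 6 other analyses and without any single library. Ndufa5 read 1143, 852, 1323 and 1004 TPM in old D1 and 637, 443, 351 and 589 TPM in old D2, without overlap (1.23, SE 0.29, adjusted p = 0.0128, edgeR). Without old D2 replicate 2 or old D2 replicate 3 the call for Ndufa5 was not made. By isoform estimate, a retained-intron isoform of Ndufa5 was at 901 ± 182 TPM in old D1 and 108 ± 87.7 in old D2. A coding isoform was at 16.6 ± 22.3 and 22.3 ± 6.38 TPM, so the higher level of Ndufa5 was not seen in that isoform. Ndufs3 read 923, 893, 905 and 729 TPM in old D1, above each of its old D2 libraries (1.01, SE 0.25, adjusted p = 0.0149, edgeR), but not without old D2 replicate 4.

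Ndufab1, the mitochondrial acyl carrier protein that also serves fatty acid synthesis, read 926, 875, 1300 and 1700 TPM in old D1 and 553, 628, 635 and 687 TPM in old D2. The groups did not overlap (log2 fold change 0.96, SE 0.25, adjusted p = 0.0187, edgeR), and the call ended without old D1 replicate 4 or without old D2 replicate 1, 2 or 4. A retained-intron isoform of Ndufab1 was estimated at 996 ± 375 TPM in old D1 and 438 ± 36.7 in old D2. Isoforms annotated as coding held 17.9% ± 5.82 of its TPM in old D1 and 29.6% ± 5.16 in old D2. Ndufa2, an N module subunit with a thioredoxin-like fold, read 1310, 654, 982 and 1384 TPM in old D1 and 687, 675, 521 and 408 TPM in old D2, with overlap (1.13, SE 0.29, adjusted p = 0.0194, edgeR). It was not called without old D1 replicate 4 or without old D2 replicate 3 or 4. Ndufs4, an N module subunit whose loss causes a Leigh-like disease in mice, read 169, 267, 264 and 216 TPM in old D1 and 123, 172, 147 and 145 TPM in old D2. Its groups overlapped, and its call (0.78, SE 0.23, adjusted p = 0.0418, edgeR) stood in 1 of the 16 refits that left out a library, the one without old D1 replicate 1. The exons of Ndufa2, Ndufs3 and Ndufab1 overlap those of Tmco6, Kbtbd4 and Gm44986 on the opposite strand; Tmco6 was at 19.1 ± 24.6 TPM and Kbtbd4 at 7.77 ± 9.22 TPM in old D1.

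The lower genes were among those that fell with age in D1. Ndufb7 was at 186, 216, 158 and 183 TPM in old D2 (log2 fold change of D1 against D2 -1.56, SE 0.40, adjusted p = 0.0188, edgeR), and its call ended without old D2 replicate 2. Ndufa3 was at 696, 1015, 923 and 607 TPM in old D2 (-1.13, SE 0.30, adjusted p = 0.0213, edgeR), and its call ended without old D1 replicate 2 or without old D2 replicate 2 or 3. Ndufa11 was at 34.5, 52.3, 55.4 and 59.2 TPM in old D2, overlapping old D1 (-1.39, SE 0.43, adjusted p = 0.0482, edgeR). Its call stood in 2 of the 16 refits, which left out old D1 replicate 3 and young D1 replicate 4.

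The age change in D1 neurons varied with base composition. The GC content of the main isoform of the 35 genes ran from 38.5% to 60.4% (median 52.2%, against 49.9% for all tested genes), and the main isoforms were short, with a median of 651 bases against 2394. The main isoform is the one with the highest mean TPM over the libraries. In 6 of the 35 genes it was annotated as noncoding, among them Ndufab1, which had the lowest GC content. Across the 35 genes, which are not independent replicates and share the same libraries, the Spearman correlation between GC content and the age change was -0.505 in D1 and -0.129 in D2. Over 13548 genes it was -0.335 in D1 and -0.00494 in D2. The 12 subunits of lowest GC had a median change of 0.09 in D1, with 6 positive. The middle 11 had -0.55 with 3 positive, and the 12 of highest GC -0.87 with 1 positive.

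After a smooth trend on GC content and length was removed from every library, 2 subunits passed for age in D1, Ndufa8 and Ndufa3. Of all 13926 genes tested, 916 passed in this fit, against 1508 before the correction. Ndufa8 was then at 1.65 log2 units (adjusted p = 0.00328, edgeR) and Ndufa3 at -1.56 (adjusted p = 0.00369, edgeR). Ndufa11 was at -1.23 (adjusted p = 0.0606), Ndufb8 at -0.90 (0.0622), Ndufa7 at -0.75 (0.207), Ndufb7 at -0.72 (0.257) and Ndufa10 at -0.48 (0.112), all by edgeR. Ndufs8 changed sign, to 0.15 (adjusted p = 0.805, edgeR). The median over the subunits was -0.13, against -0.20 for all genes, and the correlation with GC content was 0.231. In this fit the subunits' median was no lower than that of all genes. In D2 the median was -0.18 after the same correction, against 0.01 for all genes. In the comparison of old D1 with old D2 the corrected values were 1.91 for Ndufa8 (adjusted p = 0.000844, edgeR), 1.46 for Ndufs3 (0.00161), 1.34 for Ndufa2 (0.00884) and -0.97 for Ndufa3 (0.0466), which passed. Ndufa6, of the N module (1.47, adjusted p = 0.0236, edgeR), and Ndufb9 (0.91, 0.0353) passed after the correction but not before it, when they were at 1.03 (0.0851) and 0.26 (0.569). Ndufa5 (0.71, adjusted p = 0.163), Ndufs4 (0.24, 0.632), Ndufab1 (0.20, 0.617), Ndufb7 (-0.51, 0.462) and Ndufa11 (-0.58, 0.387) no longer passed. Among all genes, 959 passed in this comparison after the correction and 1337 before it.

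Over all other analyses and refits without a library, the adjusted p for age in D1 ran from 0.00152 to 0.142 for Ndufa8, 3.89e-05 to 0.1 for Ndufa11, 1.82e-05 to 0.257 for Ndufb7 and 0.00131 to 0.207 for Ndufa7 (edgeR, DESeq2 or limma). It ran from 0.00228 to 0.805 for Ndufs8, 0.00137 to 0.161 for Ndufa10 and 0.00611 to 0.14 for Ndufb8. For D1 against D2 at 2 years it ran from 3.67e-06 to 0.0418 for Ndufa8, 0.00161 to 0.121 for Ndufs3, 0.00315 to 0.083 for Ndufa2, 0.000707 to 0.163 for Ndufa5, 0.00273 to 0.617 for Ndufab1 and 0.00121 to 0.15 for Ndufa3. Ndufa3 for age in D1 and Ndufa8 for D1 against D2 at 2 years were thus the calls that stayed below 0.05 throughout.

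**Figure D3:**
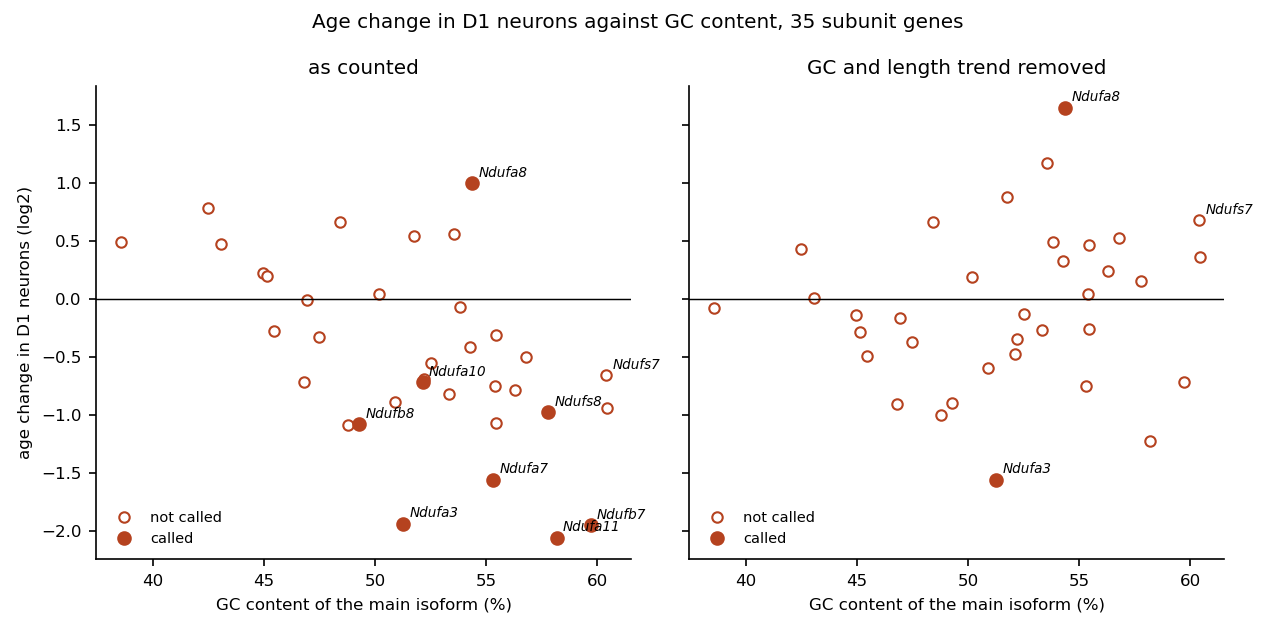
Age change in D1 neurons (log2, vertical axis) against GC content of the main isoform (percent, horizontal axis) for the 35 subunit genes, as counted (left) and after the GC and length trend was removed (right); filled circles passed an adjusted p under 0.05. On the left the values go down with GC content (Spearman -0.505), and on the right Ndufa8 and Ndufa3 alone are filled.

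Ndufs7, a core Q module subunit that carries the last iron-sulphur cluster before ubiquinone, was examined by isoform. The gene lies at chr10:80249121-80256794 on the plus strand of mm10. At gene level it was at 371, 234, 292 and 279 TPM in young D1 and 114, 159, 268 and 241 TPM in old D1 (log2 fold change -0.66, SE 0.34, adjusted p = 0.225, edgeR). Of 6 isoforms in the tables, 2 held nearly all of this, the coding ENSMUST00000020361 (758 bases) and ENSMUST00000157063 (722 bases), which is annotated as a processed transcript with no open reading frame. In GENCODE M21 they share 720 exonic bases and 8 exons each. They differ in 33 bases at the start of exon 1, which include the start codon at position 80249476, in 5 bases at the start of exon 3 (position 80253074 against 80253079), and in 2 bases at the 3′ end. The stretch from the start codon to 30 bases past the shared start of exon 3 is given for both, spliced, on the plus strand (the coding isoform between 80249476 and 80253108), because it shows both the missing start codon and the 5 bases; capitals mark bases found only in the coding isoform.
Ndufs7 coding isoform: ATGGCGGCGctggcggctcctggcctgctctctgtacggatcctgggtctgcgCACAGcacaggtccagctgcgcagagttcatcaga
Ndufs7 noncoding isoform: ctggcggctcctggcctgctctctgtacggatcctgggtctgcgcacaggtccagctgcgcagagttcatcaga

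The coding isoform was estimated at 212, 110, 35 and 145 TPM in young D1 and at 0 TPM in all 4 old D1 libraries. It was at 129, 31.2, 191 and 34.8 TPM in young D2 and 90.6, 186, 84.5 and 153 TPM in old D2. The noncoding isoform was at 147, 120, 256 and 132 TPM in young D1 and 114, 159, 266 and 241 TPM in old D1. In old D1 all but a trace of the gene was thus given to the isoform that lacks the start codon and those 5 bases. The coding share of Ndufs7 TPM was 42.1% ± 20.5 (SD, n = 4) in young D1, 0% in old D1, 35.6% ± 29.4 in young D2 and 50.3% ± 18 in old D2. The share ranged from 9.38% to 71.9% within young D2, so the spread within groups was wide. For age in D1 and for D1 against D2 at 2 years the exact two-sided permutation test gave p = 0.0286, the smallest that 4 against 4 allows, and an adjusted p of 0.0571 over 8 tests. The same exact test gave p = 0.457 for age in D2 and p = 0.743 for D1 against D2 in young mice. Because 720 bases are shared, the split rests on few fragments of a model estimate (RSEM), and an estimate of 0 does not show that the coding isoform was absent.

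The coding share was then read in all subunits. In 14 of them, Ndufs7 included, isoforms annotated as coding and as noncoding both held a part of the gene's TPM (a mean coding share between 5% and 95% over the 16 libraries, at a mean of at least 5 TPM), and 21 fell outside this rule. The mean coding share was lower in old D1 than in young D1 for 14 of 14, where 56.1% of 2556 genes under the same rule were lower, with a median difference of -27.1 percentage points against -3.68. Without Ndufs7 it was lower for 13 of 13, with a median of -18.5 points. In D2 neurons 6 of 14 were lower in old mice, with a median of 3.89 points against -0.0332. In 3 subunits, Ndufs7, Ndufb8 and Ndufb10, all 4 old D1 libraries lay below all 12 others, which 4.93% of the 2556 genes also did. None lay above them, where 2.11% of all genes did.

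For Ndufb8 the coding share was 61.5%, 55.2%, 39.6% and 52.2% in young D1 and 25%, 12.4%, 14.6% and 13.5% in old D1. Its coding isoform was at 404 ± 93.2 TPM in young D1 and 82.4 ± 48.4 in old D1, while a retained-intron isoform of 341 bases was at 393 ± 159 and 443 ± 88 TPM. For Ndufb10, another intermembrane-space subunit of the membrane arm, the share was 72%, 44.3%, 41.8% and 90.4% in young D1 and 39.3%, 7.13%, 7.42% and 13.6% in old D1. The gene-level change of Ndufb10 was -0.31 (adjusted p = 0.61, edgeR), so its estimated coding isoform (315 ± 40.5 TPM in young D1, 89.5 ± 67.5 in old D1) moved without a change called in the gene. Ndufv1, the core N module subunit that binds NADH and flavin, had a share of 72.4%, 41.8%, 24.7% and 91.5% in young D1 and 19.1%, 7.18%, 28.3% and 2.66% in old D1, with overlap. For Ndufs3 the share was 71.6% ± 3.87 in young D1 and 53.2% ± 4.41 in old D1, without overlap between these groups. The highest old D1 library (58.6%) overlapped the old D2 range (55% to 85.8%).

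Summed over all 35 genes, coding isoforms held 82% ± 3.63 of subunit TPM in young D1, 82.3% ± 4.36 in young D2, 83% ± 2.62 in old D2 and 67.6% ± 1.38 in old D1. The 4 old D1 libraries (66.8% to 69.7%) lay below the lowest of the other 12 (75.8%). Over all annotated isoforms, whatever their gene, coding isoforms held 71.1% ± 3.13 of TPM in young D1 and 76.1% ± 1.24 in old D1. That share also depends on genes with no coding isoform, so it is not a like measure. Within the 2556 genes with both kinds of isoform, the median difference for age in D1 was -3.68 points, of the same sign as in the subunits. The fragments of the old D1 libraries were also shorter (151 to 164 bases), and the part of that difference in the isoform estimates was not tested. At gene level, 15 of the 35 subunits overlap exons of another gene, 13 of them on the opposite strand, and the sources used here do not say whether strand was used in counting.

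**Figure D4:**
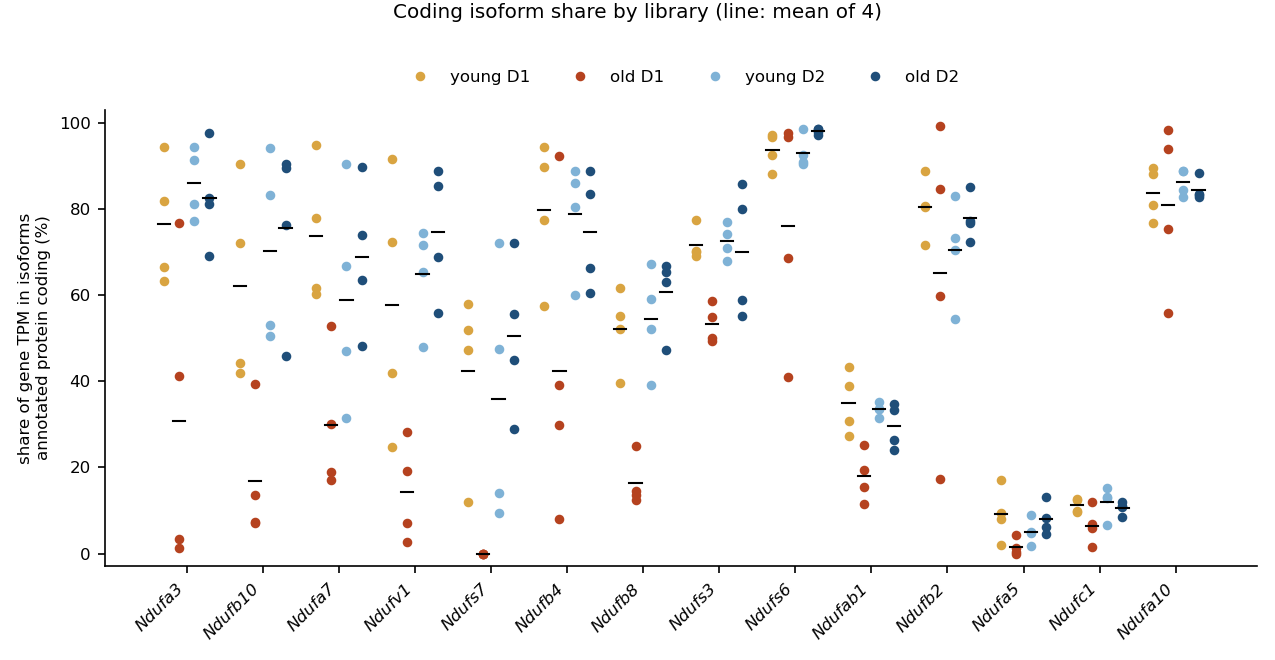
Share of a gene's TPM in isoforms annotated as protein coding (percent, vertical axis) for the 14 subunit genes with both kinds of isoform, 1 point per library and a line at the mean of 4. Old D1 points (dark orange) lie at 0 for Ndufs7 and below all other points for Ndufb8 and Ndufb10.

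The promoters of the subunits were read from RefSeq (GRCm38.p6), as 300 bases from 250 before to 50 after the annotated start. A window was found for 32 of the 35 genes, 34 windows in all. NRF1, YY1 and ETS-family factors such as GABP are the classical regulators of nuclear respiratory genes, and 3 short motifs for them were searched on both strands. The NRF1 motif GCATGCGC was in 8.82% of subunit windows and 2.71% of 32851 windows of all genes. The YY1 motif AAGATGGC was in 20.6% against 2.75%, and the ETS motif CCGGAAG in 11.8% against 8.86%. Any of them was in 41.2% against 13.3%. A match is a description of letters and does not show a bound site.

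The genes called for age in D1 did not share a motif. Short windows are printed for the gene that rose and for 3 that fell, to set them side by side, with the motif in capitals: Ndufa8 at chr2:36049331-36049354 (minus strand), Ndufa11 at chr17:56717696-56717719, Ndufb7 at chr8:83566730-83566752 and Ndufa3 at chr7:3617387-3617410 (plus strand).
Ndufa8, NRF1 motif: ctggagacGCATGCGCagatggta
Ndufa11, NRF1 motif: cactgcgcGCATGCGCgcacgcct
Ndufb7, ETS motif: tagatgacCCGGAAGacactgaa
Ndufa3, YY1 motif: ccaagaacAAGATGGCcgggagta
The NRF1 motif thus stood before the start of a gene that rose (8 bases before, in Ndufa8) and of a gene that fell (58 bases before, in Ndufa11). The ETS motif was also in the window of Ndufs8, and the YY1 motif in those of Ndufb8 and Ndufs7. In Ndufs7 the YY1 letters run into the start codon at position 80249476 that the noncoding isoform lacks.

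Other genes of the complex I pathway were read from fixed lists. Of 15 tested assembly factors, 1 passed for age in D1, where 10.8% of all genes did. The gene was Ndufaf4, an early assembly factor, which rose. It was at 55.9, 48.1, 87.7 and 49 TPM in young D1 and 78.1, 404, 55.9 and 200 TPM in old D1, with overlap (log2 fold change 1.32, SE 0.34, adjusted p = 0.0186, edgeR). The median of the assembly factors was 0.15, with 8 positive and 7 negative. All 7 mitochondrially encoded subunits had positive values for age in D1 (median 1.71), and 0 of them passed in edgeR. At an unadjusted p under 0.05 there were 2, where 26.9% of all genes were. The largest value, 4.92 for mt-Nd3, came from old D1 libraries at 0, 3.33, 13 and 65.7 TPM. Their levels were low, for example mt-Nd1 at 63.7 ± 29.1 TPM in young D1, and mitochondrial transcripts are not translated on the tagged cytosolic ribosomes.

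None of 8 regulators (among them Ppargc1a, Nrf1, Gabpa, Esrra and Tfam) passed for age in D1 in edgeR, with a median of 0.23 and 5 positive. These values are on counts. Ppargc1a was positive there (0.69, adjusted p = 0.109, edgeR), but its TPM was 141 ± 34.6 in young D1 and 98.6 ± 61.3 in old D1. Of the 8, 2 were at an unadjusted p under 0.05, where 26.9% of all genes were. Of 11 genes that follow mitochondrial mass, such as Cs and the Vdac genes, 0 passed for age in D1 in edgeR, with a median of -0.09. Of the 11, 3 were at an unadjusted p under 0.05, again beside 26.9% of all genes. For age in D2, 0 genes of these 4 lists passed in edgeR, and 2 had an unadjusted p under 0.05, both of the mass list (5.75% of all genes did). At 2 years, 1 of the 11 mass genes passed between D1 and D2, where 9.6% of all genes did. Their median was 0.15, with 6 positive and 5 negative. The gene was Vdac1, the outer membrane channel, at 1069 ± 173 TPM in D1 and 640 ± 121 TPM in D2. Its log2 fold change was 0.88 (SE 0.19, adjusted p = 0.00668, edgeR). Ndufaf4, the 1 of 15 tested assembly factors that passed, was higher in D1 in the same comparison (1.33, SE 0.34, adjusted p = 0.02, edgeR).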

How the data were processed

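Ribosome-bound mRNA of 16 TRAP libraries was analysed; 3 samples of a cell line in the series were not analysed here. Per the labels' protocols, libraries were made with NuGEN Ovation V2. Per the submitters' processing notes, STAR 2.5.1b, RSEM 1.2.20 and mm10 were used; no annotation release or strandedness is named there. The authors deposited RSEM expected counts and TPM per gene and isoform. Expected counts were rounded (20.0% of values above 0 were not whole) and tested with edgeR 4.0.16 in R 4.3.3 (filterByExpr, TMM, robust quasi-likelihood fit, 1 mean per group, all 16 libraries, Benjamini-Hochberg over all tested genes, called at adjusted p under 0.05). The step was checked on simulated counts. The deposited TPM served for levels and isoform shares. TPM mean ± SD use n = 4. Replicate numbers follow accession order and only name a library. Alternatives were DESeq2 1.42.0, no count filter, only the compared groups, voom with library weights and limma-trend on log2(TPM + 1) (limma 3.58.1), and a GC and length trend (splines, df 5) removed. Coordinates and GC content are from GENCODE M21, matched by identifier for 37607 genes and 91225 of 94647 isoforms. Some isoform lengths differ between the deposited data and M21. The coding isoform of Ndufa3 had 349 bases in the deposited data and 515 in M21, and that of Ndufa7 508 and 528. Genes given in detail were those called in any comparison, the highest and lowest by mean TPM, and Ndufs7; others that come close to a call or carry a coding share were chosen after their values were seen. The members and lists were chosen with earlier results of these data known. The 4 libraries of a group are separate replicates per the series' design text.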

Additional observations from a re-analysis of the deposited data

Results flagged for a closer look

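In 6 of 123 groups of 4 libraries, 1 library stood far from the other 3 by Dixon's test for outliers, and chance gives about 1 in 20. Ndufa5 had 1 young D1 library at 909 TPM with the others at 473, 492 and 515. Ndufs3 had 1 young D2 library at 506 TPM with the others at 634, 636 and 637, and 1 old D1 library at 729 TPM with the others at 893, 905 and 923. The coding isoform share of Ndufa10 was 88.2% in 1 old D2 library and 82.7%, 83.3% and 83.4% in the others. That of Ndufs3 was 77.4% in 1 young D1 library and 69.1%, 69.9% and 70.1% in the others. Summed TPM of the 35 subunits was 18486 in 1 young D1 library and 15123, 15372 and 15542 in the others. The age change of Ndufa3 differed between D1 and D2 neurons by -1.74 log2 units (SE 0.42, adjusted p = 0.0391, edgeR).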

How the results depend on the processing

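Of 18 calls on subunit genes over the comparisons, 2 were made in every alternative (Ndufa3 for age in D1 and Ndufa8 for D1 against D2 at 2 years), 16 were lost in at least 1, and 1 of these, Ndufs8, changed sign. DESeq2 made all 18, limma-trend on TPM 15, no count filter 14, voom 6 and the GC and length correction 6. The fit of the compared groups alone made 3 and lost 14, and it could not test the difference of age changes. For age in D1 (8 subunits) the count was 1 with the compared groups alone, 3 by voom and 2 once the trend on GC and length was taken out, where the median was -0.13. For the difference of age changes (1 subunit) it was 2 with DESeq2, and 0 with no count filter, by voom and after trend removal, where the median was 0.11. For D1 against D2 at 2 years (9 subunits) it was 2 with the compared groups alone and 3 with voom, where the median was -0.11. With the trend removed, Ndufs8 was at 0.15 and Ndufs7 at 0.68 for age in D1. The compared-groups fit has fewer samples to estimate spread. Over all genes it called 305 for age in D1 (1508 in the main fit) and 354 for D1 against D2 at 2 years (1337). It called 39 for age in D2 (11 in the main fit) and 98 for D1 against D2 in young mice (57). Voom called 547 of all genes for age in D1 and 655 for D1 against D2 at 2 years. The fit with the GC and length trend removed called 916 and 959, and DESeq2 2600 and 2402. The cause of these changes between settings was not tested. Voom moved the median of all genes to -0.38 for age in D1 and -0.40 for D1 against D2 at 2 years, so its changes are read against those values.

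Leaving out 1 library at a time gave 5 to 10 subunits for age in D1 (lowest without young D1 replicate 1 or 4), 0 to 0 for age in D2, 0 to 2 for the difference, 0 to 0 for D1 against D2 in young mice and 3 to 10 for D1 against D2 at 2 years (3 without old D2 replicate 2, 4 without old D2 replicate 3 or 4, 5 without old D1 replicate 4). Medians ran from -0.64 to -0.39 for age in D1, -0.36 to -0.13 for age in D2, -0.39 to -0.05 for the difference, 0.14 to 0.31 for D1 against D2 in young mice and -0.07 to 0.11 for D1 against D2 at 2 years. The difference in the Ndufs7 coding share ran from -52.1 to -37.1 points for age in D1, 5.96 to 26.8 for age in D2, -57.5 to -43.2 for D1 against D2 at 2 years and -2.28 to 18.6 for D1 against D2 in young mice, where -0.694 was the other value below 0; with 3 against 4 libraries the smallest p is 0.0571. Among all genes, the refits without 1 library called 909 to 2055 for age in D1 and 692 to 1873 for D1 against D2 at 2 years. No paired analysis was possible because the labels give no replicate numbers shared between groups. The depth behind these values is 73440 to 268516 fragments per library on the 35 genes.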
